A study of Mus musculus with 6 samples.

Results

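Glycolysis, the pentose phosphate pathway and the response to low oxygen were followed through 41 genes in haematopoietic stem cells from mice with and without the RNA-binding protein Rbfox2. The genes were taken from a fixed list of symbols that covers glucose and lactate transport, each step of glycolysis, entry of pyruvate into mitochondria, the pentose phosphate enzymes and 5 hypoxia genes. All 41 were found among the 22969 gene identifiers of the count table, and 40 of them passed the filter on low counts that left 12350 genes for testing; Vegfa did not pass.

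RNA was sequenced from cells with the surface profile LSK CD150+CD48-, the gate that enriches for long-term stem cells of the bone marrow. About 500 cells from adult C57BL/6 mice went into each library. Smart-seq2, which amplifies cDNA along the whole transcript from few cells, was used. The controls were 3 Rbfox2-fl/fl mice, in which Rbfox2 is flanked by loxP sites but intact. The other 3 mice were Vav1-cre; Rbfox2-fl/fl, in which Cre recombinase driven by the Vav1 promoter acts across blood cells; the floxed alleles are common to both groups and Cre is present in the deleted mice alone, with no group of Cre alone among the samples used here.

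Glycolysis turns glucose into pyruvate, with a preparatory phase that spends ATP and a pay-off phase that returns it. Lactate dehydrogenase reduces pyruvate to lactate, pyruvate dehydrogenase sends it into mitochondria, and the pentose phosphate pathway diverts glucose 6-phosphate to make NADPH and ribose. Hypoxia-inducible factor raises the transcription of many glycolytic genes when oxygen is low, and quiescent stem cells of the marrow are known for relying on glycolysis. Rbfox2 is known chiefly as a regulator of alternative splicing, which these gene-level counts cannot show.

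Total counts were 47895459, 51643037 and 55151484 in control 1 to 3 and 23474895, 35650284 and 33345370 in deleted 1 to 3. Rbfox2 itself (ENSMUSG00000033565, chromosome 15) was counted 238, 11 and 250 times in control 1 to 3 and 2, 87 and 10 times in deleted 1 to 3, so that control 2 lay below deleted 2 and the counts did not separate the labelled genotypes (log2 fold change -1.49, SE 2, adjusted p = 0.923, edgeR). Gene-level counts include exons that a floxed deletion may leave in place. The label "deleted" is therefore that of the deposited labels throughout. Controls 1 and 3 differed by 3.44 times the sampling variance (chi-square per degree of freedom) where the other pairs differed by 156 to 808 times, and their counts were summed and treated as 1 sample. This leaves 2 control and 3 deleted samples. Xist and Eif2s3y counts marked deleted 1 and 3 as female and the other 4 libraries as male, so sex was uneven between the groups. Gene-level values below are counts relative to library size (CPM) scaled by TMM, and log2 fold changes are deleted minus control.

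The 8 markers of the gate summed to 1719 and 1809 CPM in the controls and 1455, 1557 and 1588 CPM in the deleted samples. Kit lay between 79.4 and 180 CPM and Procr between 147 and 281 CPM. Ly6a, which encodes the Sca-1 of the gate, was lower in every deleted sample, at 645 and 875 CPM against 392, 311 and 363, and Fgd5 was under 5 CPM in all but control 2. Cd48 had 0 counts in 5 libraries and 3 in deleted 3. Lists of other cell types held both absent and abundant genes: Ctsg, Cd3e and Cdh5 had at most 2 counts in any library, whereas Lyz2 lay between 1175 and 2065 CPM, Prtn3 between 386 and 793, Cd79b between 127 and 316 and Nkg7 between 80.1 and 103 CPM. Summed CPM were higher in every deleted sample for 8 erythroid markers (3009 and 2440 against 5512, 3705 and 4577), most of it Car2 at 2259 to 4938 CPM. Car2 alone of this list was higher without overlap, and the others overlapped between the groups. Hba-a1, for example, had 17.7 and 19.7 CPM against 181, 13.3 and 12.1. Sums were lower in every deleted sample for 6 megakaryocyte markers (301 and 317 against 52.3, 152 and 238), 8 neutrophil markers (813 and 554 against 532, 413 and 461), 6 monocyte and macrophage markers (2115 and 1609 against 1482, 1428 and 1184), 4 B cell markers (322 and 229 against 212, 129 and 168) and 6 stress markers of cell handling (265 and 314 against 141, 154 and 155). Most of the neutrophil, monocyte and B cell sums came from Prtn3, Lyz2 and Cd79b in turn. S100a8, S100a9 and Ngp of the neutrophil list overlapped between the groups. Most of the megakaryocyte sum came from Gp9 and Pf4, which were lower in every deleted sample, as was Ppbp. Itga2b, Gp1bb and Vwf of that list overlapped, with Itga2b at 15.2 and 13.2 CPM against 12.5, 14.3 and 38.5. Ddit3 was the largest part of the stress sum, at 186 and 254 CPM against 134, 59.1 and 88.6. Jun of that list had 23.5 and 28.6 CPM in the controls and 0, 51.7 and 41 in the deleted samples. Sums overlapped for 6 T and NK cell markers (87.2 and 118 against 199, 104 and 108) and 5 cycling markers (259 and 330 against 91.1, 297 and 99.5). Stromal and endothelial markers summed to under 2 CPM in all samples. The share of mitochondrial transcripts was 5.52 to 5.58% in the controls and 3.9, 5.19 and 4.05% in deleted 1 to 3. Their part in the values of the metabolic genes was not tested.

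Of the 40 members tested, 32 had a log2 fold change above 0 and 8 below, with a median of 0.68 where all 12350 genes had a median of 0.11 and 53.5% of them lay above 0. No member passed an adjusted p of 0.05 in edgeR, as no gene did (percent called 0). At an unadjusted p under 0.05, 9 members were higher and 0 lower, against 5.33% and 4.56% of all genes tested. DESeq2 called 1 member, Tkt, beside 1.58% of the genes to which it gave an adjusted p. In 13 members (32.5%) every deleted sample lay above both control samples, where 14.9% of all genes did, and in 2 members (5%) every deleted sample lay below, where 17.2% of all genes did. Without deleted 1, the shallowest library, these counts were 22 and 4, beside 27.7% and 26.8% of all genes. Leaving out each of the other samples gave 14 to 16 members higher, beside 19.1 to 22.5% of all genes, and 3 to 5 lower, beside 23.9 to 26% of all genes. The zero point differed between settings: with upper-quartile scaling the median of all genes was -0.20 and that of the members 0.40, with 28 of 40 above 0, and with limma-voom, which also changes the model, the medians were -0.32 and 0.17, with 22 of 40 above 0. The members' median exceeded that of all genes by 0.57 with TMM, 0.60 with upper-quartile scaling and 0.50 with limma-voom, by 0.99 with sex as a covariate, 0.95 without deleted 1 and 0.40 without control 1+3.

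The member medians were 0.41, 0.87 and 1.02 in deleted 1, 2 and 3 against the control mean, where the medians of all genes were -0.49, -0.09 and -0.02. By phase, 5 of the 6 genes of the pay-off phase (83.3%) were higher without overlap, beside 14.9% of all genes. Of 14 genes of uptake and the preparatory phase, 3 were higher (21.4%) and 1 lower (7.14%, beside 17.2% of all genes). Of 9 genes that handle pyruvate and lactate, 2 were higher (22.2%) and 1 lower (11.1%). In the pentose phosphate pathway 2 of 7 were higher (28.6%), and of 4 hypoxia genes tested, 1 was (25%). In bulk samples, fewer cells of a type with a transcript and less of that transcript per cell cannot be told apart.

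**Figure D1:**
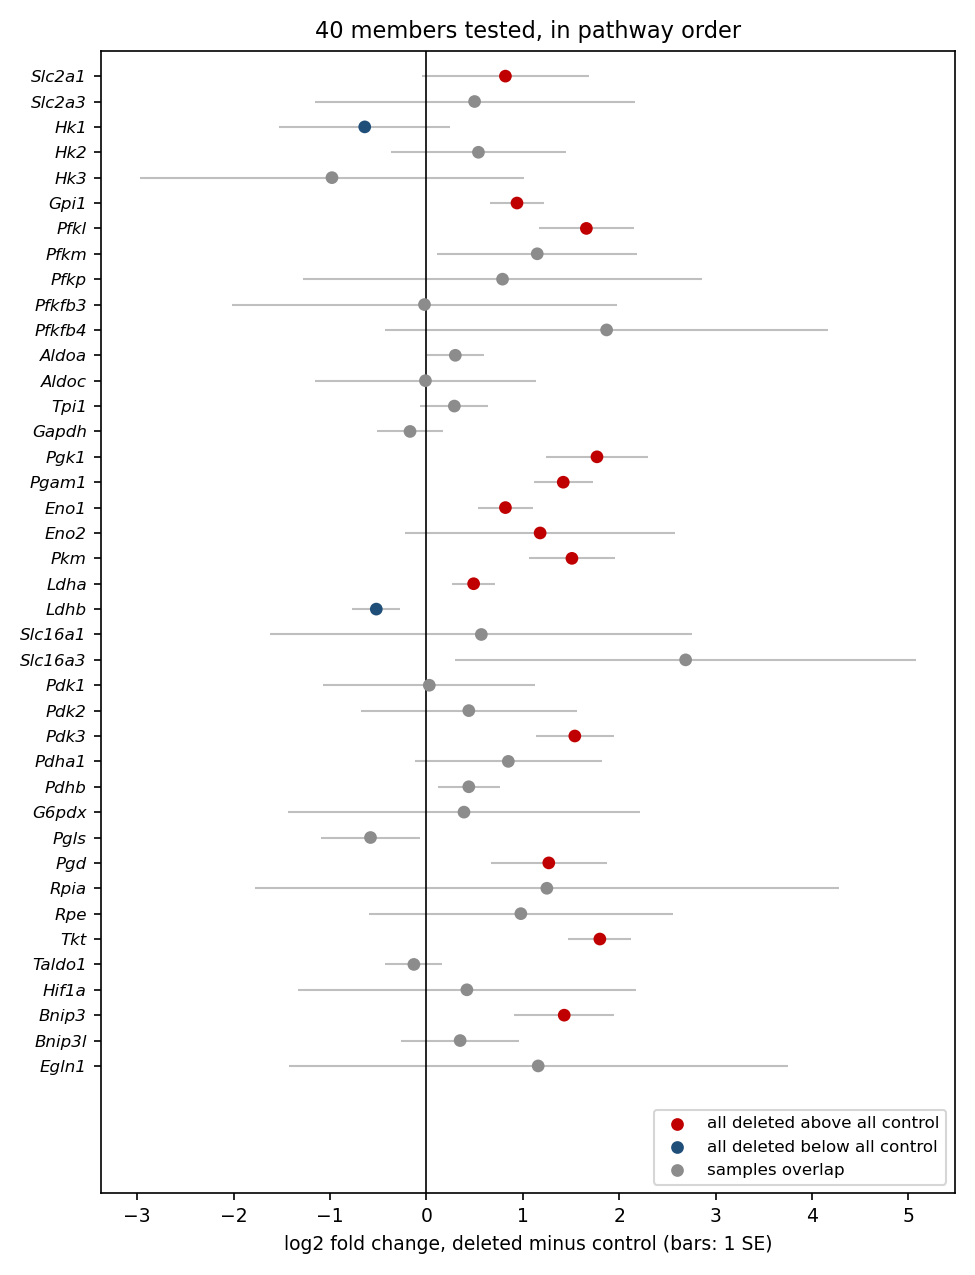
Log2 fold change (deleted minus control, edgeR; bars show 1 SE) of the 40 members tested, in pathway order. Red points are the 13 members whose 3 deleted samples all lay above the 2 control samples, blue the 2 whose deleted samples all lay below, and grey the rest; no member passed the adjusted threshold.

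ACGTG is a form of the core site of hypoxia-inducible factor, and other forms of the site were not searched. Of the 7 members that were higher without overlap and hold ACGTG near their start, the promoters of 4 are shown. Those of Slc2a1, Pkm and Pdk3 are not printed, since most or all of the stretch lies past an annotated transcript start. The Ldha stretch is printed although it also lies wholly past the earliest annotated start of its gene, at chr7:46841475. RefSeq windows of 300 bases (250 before to 50 after the start site, GRCm38.p6) were searched on both strands for ACGTG, so that CACGTG, which reads the same on both strands, counts as 2 matches. Capitals mark ACGTG, its reverse complement CACGT, or both where they overlap, and each stretch runs from 10 bases before the outermost match to the start site on the gene's own strand. Pgk1 (phosphoglycerate kinase) spans chrX:106186940-106187099 (plus strand), Pgam1 (phosphoglycerate mutase) chr19:41911747-41911870 (plus), Ldha (lactate dehydrogenase A) chr7:46845649-46845803 (plus) and Bnip3 (a mitochondrial autophagy receptor) chr7:138909507-138909624 (minus).
Pgk1: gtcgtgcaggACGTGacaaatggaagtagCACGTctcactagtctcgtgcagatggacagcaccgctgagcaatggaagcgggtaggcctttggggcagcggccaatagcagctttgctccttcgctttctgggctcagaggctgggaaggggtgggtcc
Pgam1: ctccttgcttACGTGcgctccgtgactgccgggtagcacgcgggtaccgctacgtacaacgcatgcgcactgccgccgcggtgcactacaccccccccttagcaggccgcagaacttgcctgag
Ldha: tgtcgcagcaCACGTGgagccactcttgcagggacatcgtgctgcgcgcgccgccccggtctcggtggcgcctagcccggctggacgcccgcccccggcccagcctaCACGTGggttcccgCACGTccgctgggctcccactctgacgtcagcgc
Bnip3: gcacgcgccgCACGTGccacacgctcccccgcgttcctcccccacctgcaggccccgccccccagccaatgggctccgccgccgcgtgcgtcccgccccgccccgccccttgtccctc

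The letters ACGTG lay in 26 of 55 member windows (47.3%), against 20.5% of the 25173 windows of all genes and 25.6% of the 12358 windows of genes tested. By gene, 23 of 39 members with a window held them (59%), against 29.5% of genes tested; Slc2a3 and Bnip3l had no window. They were in 7 of the 13 members that were higher without overlap (53.8%) and in 16 of the 26 other members (61.5%). The other members include Hk1 and Ldhb, which were lower without overlap and lacked the letters. The median number of CG pairs per window was 20 in the members and 20 in genes tested, and 10 in all genes. Ldha had 5 matches of ACGTG, Pgk1 2, and Tkt, Eno1, Gpi1, Pfkl and Pgd none in these windows.

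Glucose enters through the facilitative transporters Slc2a1 and Slc2a3. Slc2a1 was measured at 12.3 CPM in control 1+3 and 9.90 in control 2, and at 14.2, 19.9 and 24.6 CPM in deleted 1 to 3. The deleted samples all lay above the controls, by a margin smaller than the model's error (log2 fold change 0.82, SE 0.868, adjusted p = 0.89, edgeR). Slc2a3 ranged from 0.354 CPM in deleted 1 to 32.1 in deleted 3, with both controls between, at 13.5 and 5.74 CPM.

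Hexokinase traps glucose in the cell as glucose 6-phosphate. Hk1, the widely expressed form, had 27.1 and 28.5 CPM in the controls and 6.17, 21.1 and 26.2 CPM in the deleted samples. All 3 deleted samples lay below the controls, deleted 3 only just (log2 fold change -0.64, SE 0.886, adjusted p = 0.925). Hk2, the hypoxia-responsive form, lay at 7.50 and 18.1 CPM in the controls and between 14.9 and 22.4 in the deleted samples, and Hk3 at 10.8 and 5.86 CPM against 0, 5.40 and 7.20. Expressed as a share of the 3 hexokinases per kilobase of transcript, Hk1 made up 59.9 and 59.2% in the controls and 32.6, 55.6 and 51.9% in the deleted samples, below the control range in each. Hk2 made up 11.6 and 26.2% against 67.4, 27.4 and 31%, and the value of 67.4% came from deleted 1, in which Hk3 had 0 counts.

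Glucose phosphate isomerase, Gpi1, converts glucose 6-phosphate to fructose 6-phosphate. It had 172 and 138 CPM in the controls and 255, 314 and 322 CPM in the deleted samples. The groups did not overlap, and the mean was 155 ± 24.1 CPM (SD, n = 2) against 297 ± 36.9 (SD, n = 3). The log2 fold change was 0.94 (SE 0.279, adjusted p = 0.387, edgeR).

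Phosphofructokinase, the committed step of glycolysis, is made from liver (Pfkl), muscle (Pfkm) and platelet (Pfkp) subunits. Pfkl had 49.1 and 30.8 CPM in the controls and 83.5, 175 and 120 CPM in the deleted samples, without overlap (log2 fold change 1.66, SE 0.495, adjusted p = 0.387, edgeR). Pfkm had 9.09 and 5.53 CPM against 7.28, 24.0 and 17.2, and Pfkp 13.0 and 12.1 CPM against 0, 31.4 and 33.6. In deleted 2 and 3 all 3 subunits were thus above both controls, while deleted 1 had no Pfkp count. Per kilobase, Pfkl was the leading subunit in all 5 samples, at 67.7 and 63.1% of the set in the controls and 89.8, 74.6 and 69.5% in the deleted samples; its share differed by 12.6 percentage points with all samples and by 6.73 without deleted 1. Pfkfb3 and Pfkfb4, which make the phosphofructokinase activator fructose 2,6-bisphosphate, were low: Pfkfb3 had 3.60 and 2.23 CPM against 0.0506, 7.79 and 0.772 (log2 fold change -0.02, SE 2), and Pfkfb4 0.789 and 0.541 against 0, 2.18 and 5.15.

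Aldolase splits fructose 1,6-bisphosphate into 2 triose phosphates, which triose phosphate isomerase (Tpi1) interconverts. Aldoa had 1342 and 1233 CPM in the controls and 2117, 1338 and 1292 in the deleted samples. Deleted 1 alone stood above the controls (log2 fold change 0.30, SE 0.294, adjusted p = 0.88; -0.08 with upper-quartile scaling). Aldoa made up between 94.1 and 99.9% of aldolase per kilobase in every sample, and Aldoc was lowest in deleted 1, at 4.55 CPM, and highest in deleted 2, at 156 CPM. Tpi1 had 673 and 564 CPM against 923, 885 and 458, so deleted 3 lay below both controls (log2 fold change 0.29, SE 0.354; -0.07 with upper-quartile scaling).

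The pay-off phase begins with Gapdh, the oxidation step. Gapdh had 400 and 265 CPM in the controls and 383, 286 and 221 CPM in the deleted samples, overlapping throughout (log2 fold change -0.17, SE 0.339, adjusted p = 0.961, edgeR; 0.13 without control 1+3). Of its 50-base windows, 82.5% also occur in other annotated genes, 222 in all, so its count depends on how such reads were assigned.

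Pgk1, the X-linked kinase that makes the pathway's earlier ATP, had 49.2 and 48.1 CPM in the controls and 271, 124 and 103 CPM in the deleted samples. The lowest deleted sample lay above both controls, and deleted 1 above all (log2 fold change 1.77, SE 0.528, adjusted p = 0.387, edgeR). The male deleted 2, at 124 CPM, lay above both male control samples. Of its windows 68% are shared, nearly all with Pgk1-rs7.

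Pgam1, the mutase that follows, had 120 and 85.2 CPM in the controls and 305, 270 and 250 CPM in the deleted samples. Its deleted samples lay close together, and the means were 103 ± 24.6 CPM (SD, n = 2) and 275 ± 27.8 (SD, n = 3). The log2 fold change was 1.42 (SE 0.304, adjusted p = 0.387, edgeR), the second smallest unadjusted p of the members (0.0029). A pseudogene, Pgam1-ps2, shares 41.5% of its windows.

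Enolase 1, which makes phosphoenolpyruvate, had 318 and 376 CPM in the controls and 694, 686 and 459 CPM in the deleted samples, without overlap (log2 fold change 0.82, SE 0.286, adjusted p = 0.44, edgeR). Its near-identical copy Eno1b shares 70.5% of its windows and had more counts than Eno1 itself, at 746 and 579 CPM against 1515, 1454 and 964. Eno1 took 29.9 and 39.4% of the pair's counts in control 1+3 and control 2 and 31.4, 32.1 and 32.3% in the deleted samples. Summed before the fit, the pair had 1063 and 955 CPM against 2209, 2140 and 1423, with a log2 fold change of 0.93 (SE 0.279, adjusted p = 0.389, edgeR), and its groups did not overlap either. Eno2, the neuronal form, was under 5 CPM in all samples: 1.63 and 1.41 CPM in the controls and 4.35, 3.79 and 2.21 in the deleted samples, higher without overlap (log2 fold change 1.18, SE 1.4).

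**Figure D2:**
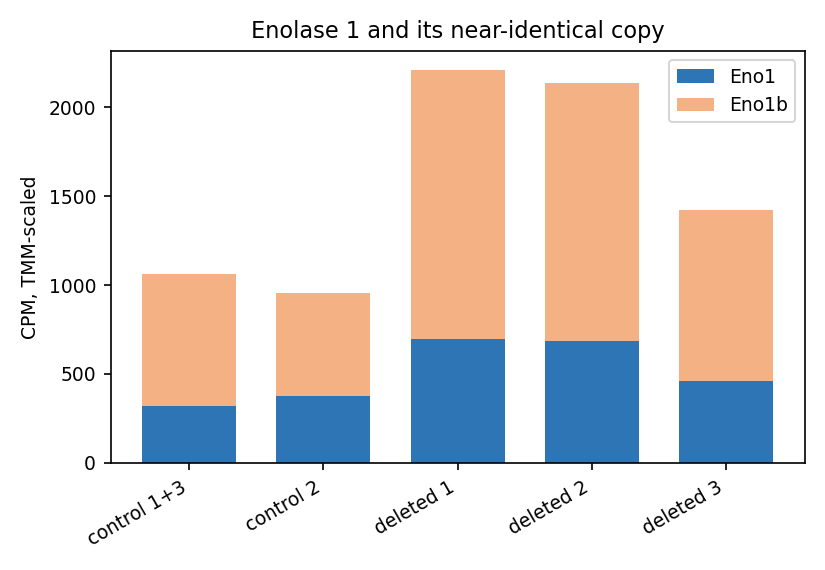
Stacked bars give the TMM-scaled CPM of Eno1 (blue) and of its near-identical copy Eno1b (orange) in the 2 control and 3 deleted samples. The sum was 1063 and 955 CPM in the controls and 1423 to 2209 CPM in the deleted samples.

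Pyruvate kinase, Pkm, which makes pyruvate and ATP, had 352 and 282 CPM in the controls and 464, 1238 and 1008 CPM in the deleted samples. Deleted 1 was closest to the controls, and deleted 2 and 3 were far above them (log2 fold change 1.51, SE 0.449, adjusted p = 0.387, edgeR). Per kilobase, Pkm went from 131 ± 20.3 CPM (SD, n = 2) to 372 ± 163 (SD, n = 3). With Eno1b left out of enolase, it went from rank 9 to rank 5 of the 19 steps and sets compared. The isoforms made by its alternative exons, PKM1 and PKM2, were not separated in these counts.

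**Figure D3:**
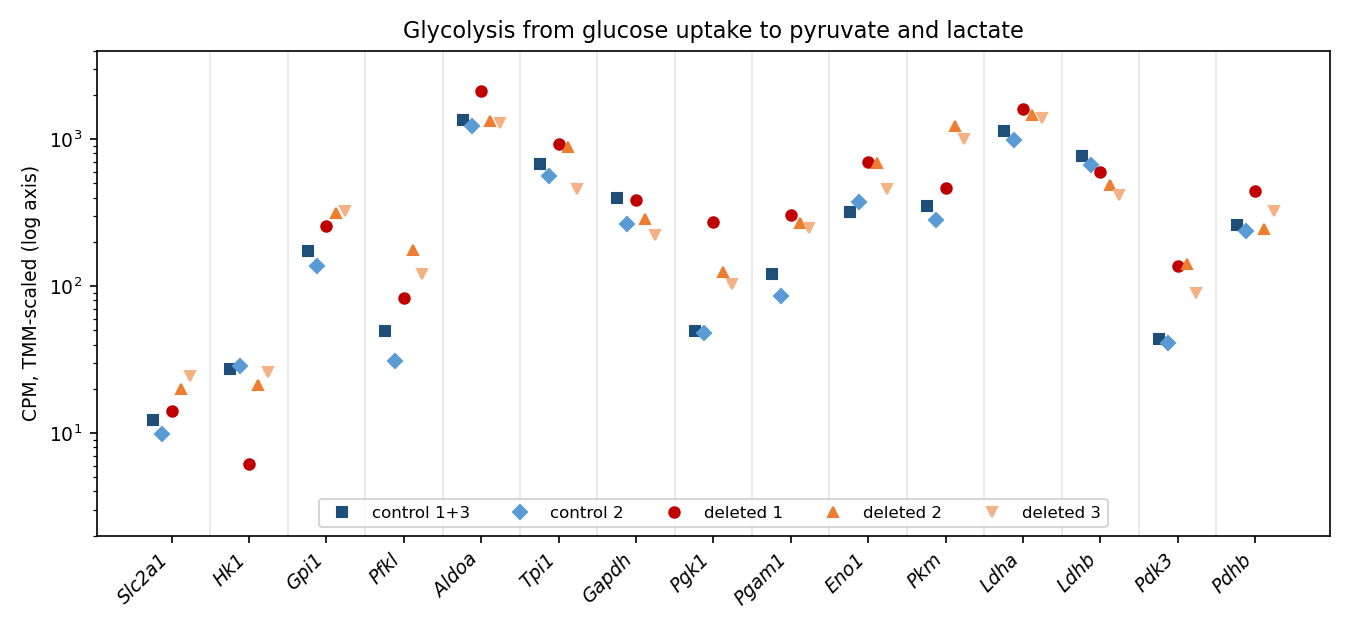
TMM-scaled CPM (log axis) of 15 genes from glucose uptake to pyruvate dehydrogenase, with 1 symbol for each of the 2 control samples (blue) and 3 deleted samples (red and orange). From Pgk1 to Ldha every deleted sample lies above both controls, whereas for Aldoa, Tpi1 and Gapdh the groups overlap.

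Lactate dehydrogenase is built from A subunits, which are known to favour lactate production, and B subunits, which favour its oxidation. Ldha had 1145 and 981 CPM in the controls and 1615, 1459 and 1391 CPM in the deleted samples. Ldhb had 773 and 665 CPM in the controls and 596, 489 and 419 CPM in the deleted samples. The groups did not overlap for either gene, Ldha being higher and Ldhb lower in all 3 deleted samples, and neither difference passed the test (Ldha log2 fold change 0.49, SE 0.22, adjusted p = 0.556; Ldhb -0.52, SE 0.25, adjusted p = 0.594, edgeR).

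The balance between the subunits varied little within each group. Per kilobase, Ldha made up 52.2 and 52.1% of lactate dehydrogenase in the controls and 66.7, 68.8 and 71.0% in the deleted samples. The means were 52.2 ± 0.0605% (SD, n = 2) and 68.8 ± 2.16% (SD, n = 3), a difference of 16.6 percentage points, which ranged from 15.5 to 17.7 when each sample was left out in turn and was 15.3 when the counts were not divided by length. An exact permutation test of 2 against 3 samples cannot reach a p of 0.05, and none is given. The summed enzyme differed little, at 1153 ± 125 CPM per kilobase (SD, n = 2) against 1227 ± 133 (SD, n = 3), and was the highest of the 19 steps and sets in both groups. Ldha shares 17.1% of its windows with other annotated genes and Ldhb 27%.

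Lactate leaves through the monocarboxylate transporters Slc16a1 and Slc16a3. Slc16a1 had 1.05 and 3.51 CPM in the controls and 0, 4.80 and 5.33 CPM in the deleted samples, and Slc16a3, the exporter induced by hypoxia, had 0.837 and 1.10 CPM against 0, 7.22 and 11.5. Deleted 2 and 3 were above both controls for each gene, while deleted 1 had 0 counts of both, where 3 counts would be 0.152 CPM. The log2 fold change of Slc16a3 was 2.69 (SE 2.39, adjusted p = 0.855, edgeR).

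Pyruvate dehydrogenase kinases switch off the entry of pyruvate into mitochondria. Pdk3, X-linked, had 43.7 and 40.7 CPM in the controls and 138, 141 and 90.0 CPM in the deleted samples. The groups did not overlap, the male deleted 2 was as high as the female deleted 1, and none of its windows occurs in another gene (log2 fold change 1.54, SE 0.407, adjusted p = 0.387, edgeR). Pdk1, known as a target of hypoxia-inducible factor, had 11.0 and 9.11 CPM against 14.3, 3.30 and 13.2, and Pdk2 23.1 and 22.2 CPM against 3.49, 33.6 and 55.3; both overlapped. Per kilobase, Pdk3 was the leading kinase in all 5 samples, at 62.5 and 62.3% of the set in the controls and 93.8, 81.1 and 61.0% in the deleted samples, with deleted 3 at the control level. Of the enzyme they inhibit, Pdha1 had 14.4 and 14.0 CPM in the controls against 7.28, 34.2 and 35.2, and Pdhb 262 and 236 CPM against 445, 245 and 324 (log2 fold change 0.44, SE 0.323, adjusted p = 0.794, edgeR).

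**Figure D4:**
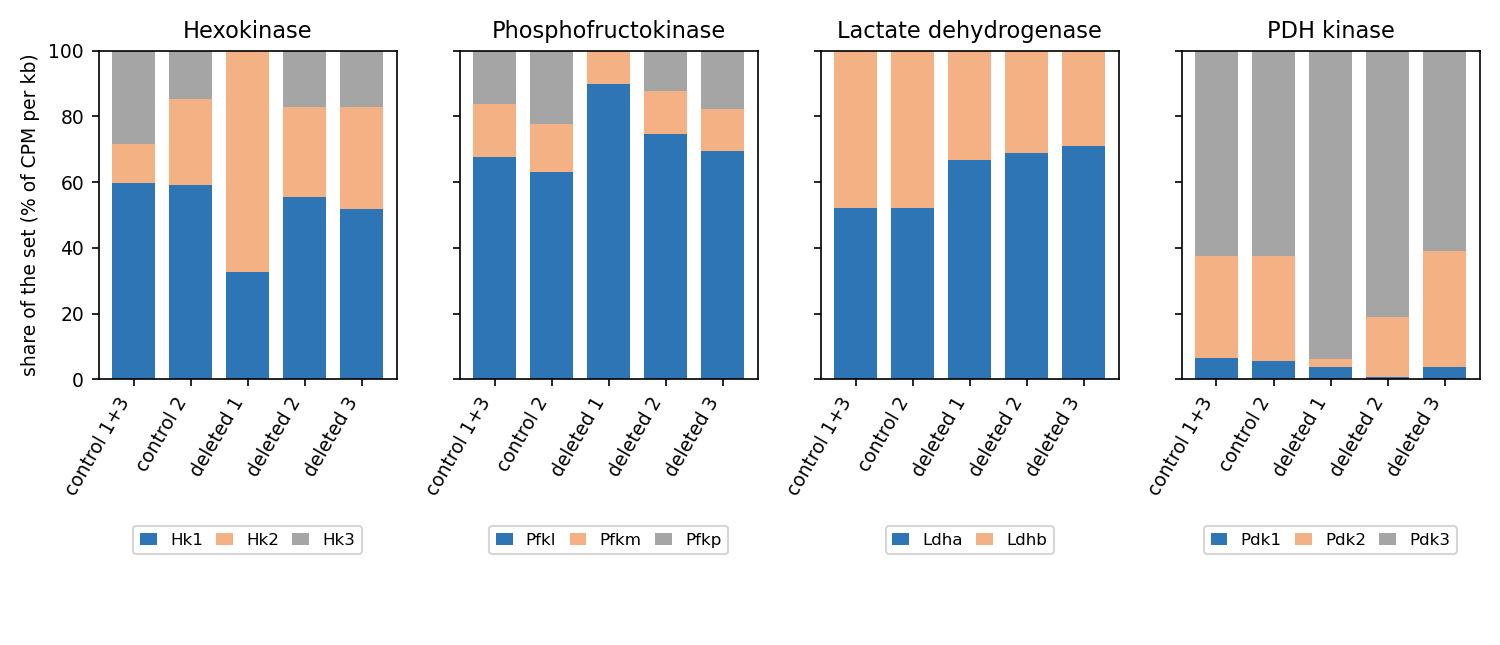
Stacked bars give the share (percent of CPM per kilobase) of each gene in 4 isozyme sets for the 2 control and 3 deleted samples. The Ldha share is 52.1 to 52.2% in the controls and 66.7 to 71% in the deleted samples, while the PDH kinase and hexokinase shares of deleted 1 differ from those of deleted 2 and 3.

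In the oxidative branch of the pentose phosphate pathway, G6pdx makes NADPH at the entry step, Pgls opens the lactone and Pgd makes further NADPH. G6pdx, X-linked, had 16.9 and 31.1 CPM in the controls and 0.0506, 46.1 and 48.1 CPM in the deleted samples. The value of deleted 1 rests on 1 count, whereas deleted 2 and 3 lay above both controls. Pgd had 34.6 and 16.4 CPM in the controls and 46.2, 65.6 and 72.1 CPM in the deleted samples, higher without overlap (log2 fold change 1.27, SE 0.601, adjusted p = 0.585, edgeR). Pgls had 94.4 and 106 CPM against 101, 63.3 and 36.5; deleted 2 and 3 were below the controls and deleted 1 between them (log2 fold change -0.58, SE 0.514, adjusted p = 0.855, edgeR).

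Transketolase, Tkt, which moves 2-carbon units between sugar phosphates and links the pathway back to glycolysis, had the smallest p of all members. It had 134 and 88.1 CPM in the controls and 446, 394 and 319 CPM in the deleted samples. Each deleted sample lay far above both controls, and the means were 111 ± 32.3 CPM (SD, n = 2) and 386 ± 63.7 (SD, n = 3). The log2 fold change was 1.80 (SE 0.327), with an unadjusted p of 0.00124 and an adjusted p of 0.387 in edgeR's quasi-likelihood test, and an adjusted p of 0.034 in DESeq2; over the other alternatives it lay between 0.0635 and 1. None of its windows occurs in another gene, and its log2 fold change lay between 1.54 and 2.10 when each sample was left out in turn. Taldo1, transaldolase, the partner enzyme, had 358 and 337 CPM in the controls and 284, 256 and 415 in the deleted samples, on both sides of the controls (log2 fold change -0.13, SE 0.295, adjusted p = 0.961).

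Rpia and Rpe, which interconvert the pentose phosphates, varied widely among the deleted libraries. Rpia had 2.48 and 2.75 CPM in the controls, 18.7 CPM in deleted 1 and 0 counts in deleted 2 and 3. Rpe had 5.84 and 13.4 CPM in the controls and 44.6, 11.7 and 0.746 CPM in the deleted samples. Both were thus highest in deleted 1, the library in which G6pdx was nearly absent.

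Among the hypoxia genes, Hif1a, the regulated subunit of hypoxia-inducible factor, had 5.80 and 5.49 CPM in the controls and 0.101, 10.1 and 12.5 CPM in the deleted samples. Deleted 1 had 2 counts and the other deleted samples lay above both controls (log2 fold change 0.42, SE 1.75, adjusted p = 0.979, edgeR; -0.15 without deleted 3). Egln1, the prolyl hydroxylase that marks the factor for degradation, had 0.895 and 0.229 CPM against 0.0506, 0 and 3.73 (log2 fold change 1.16, SE 2.59). Vegfa, the angiogenic growth factor, had 0, 1 and 1 counts in the control libraries and 0, 3 and 63 in the deleted libraries, at or near the limit of detection in all but deleted 3. Vegfa was thus measured at too few counts in most libraries to compare the groups, and Egln1 had 1 and 0 counts in deleted 1 and 2.

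Bnip3 and Bnip3l encode mitophagy receptors induced by hypoxia. Bnip3 had 30.6 and 23.7 CPM in the controls and 89.1, 53.7 and 77.4 CPM in the deleted samples, without overlap (log2 fold change 1.43, SE 0.517, adjusted p = 0.457, edgeR). Other annotated genes share 62.4% of its windows. Bnip3l, the more abundant of the pair, had 245 and 206 CPM against 526, 223 and 116, so the deleted samples lay above, between and below the controls (log2 fold change 0.35, SE 0.613; -0.42 without deleted 1 and -0.08 with upper-quartile scaling).

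**Figure D5:**
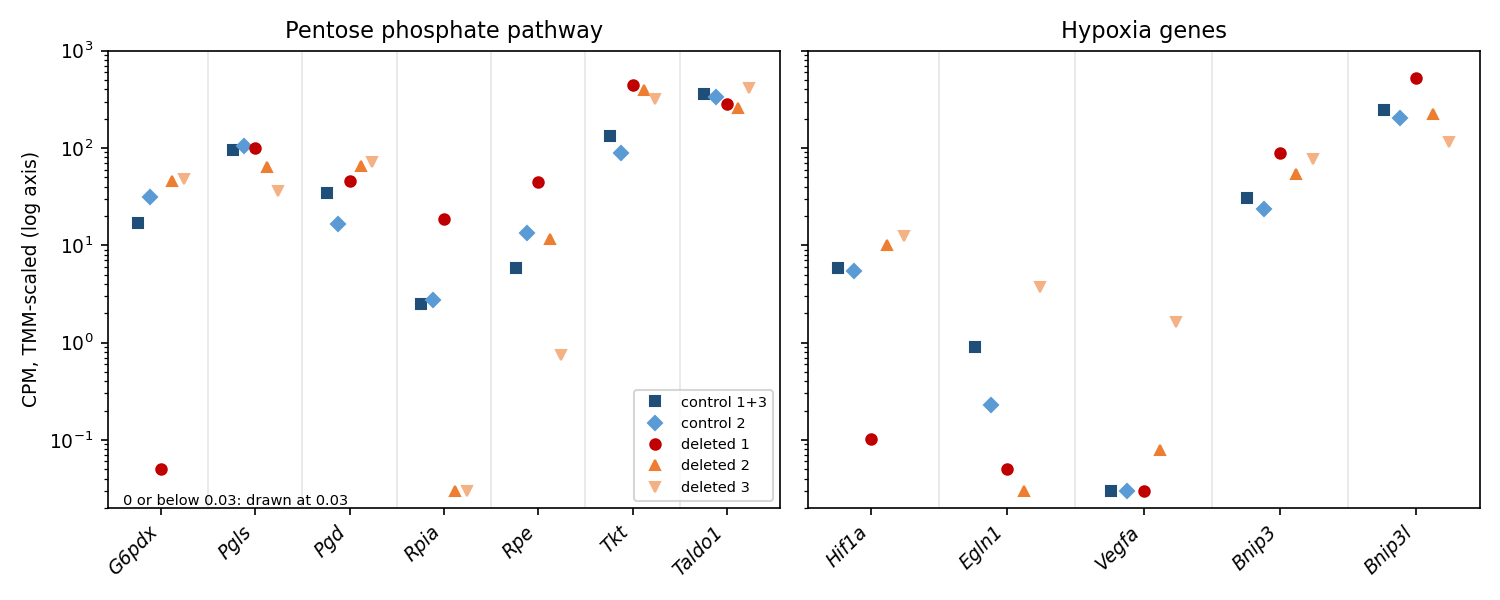
TMM-scaled CPM (log axis) of the 7 pentose phosphate genes and the 5 hypoxia genes in the 2 control (blue) and 3 deleted samples (red and orange); values of 0 or below 0.03 are drawn at 0.03. Pgd, Tkt and Bnip3 are higher in every deleted sample, while G6pdx, Rpia, Rpe, Hif1a and Egln1 spread widely between deleted libraries.

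Levels per kilobase show where transcripts were concentrated. Lactate dehydrogenase ranked highest in both groups, aldolase next, at 881 ± 52.4 CPM per kilobase (SD, n = 2) in the controls and 1076 ± 285 (SD, n = 3) in the deleted samples, and triose phosphate isomerase after it, at 385 ± 48.2 and 470 ± 161. This ranking leaves Eno1b out of enolase, which stood at 172 and 304 CPM per kilobase. Over the 5 samples Eno1b alone had a mean of 587 CPM per kilobase, where Tpi1 had 436. The places of enolase and Gapdh thus depend on how shared reads were assigned. Aldolase overlapped lactate dehydrogenase in the deleted samples, since deleted 1 had 1403 CPM per kilobase of aldolase and 1371 of lactate dehydrogenase. Lactate transport, taken as Slc16a1 and Slc16a3, leaves out Slc16a7, at 0.683 and 0.0208 CPM in the controls and 22.7, 1.58 and 6.07 in the deleted samples. The lowest were lactate transport, at 0.739 ± 0.437 and 2.2 ± 1.99 CPM per kilobase, and the Pfkfb regulators, at 0.819 ± 0.26 and 1.32 ± 1.18, which overlapped. Glucose uptake, at 5.84 ± 1.92 and 9.44 ± 5.71, and hexokinase, at 12.1 ± 0.524 and 9.29 ± 4.13, came next; hexokinase was the higher in both control samples, while in the deleted group the means differed by less than their spread. Summed over isozymes, phosphofructokinase was higher without overlap, at 19.5 and 13.1 CPM per kilobase in the controls and 24.9, 62.8 and 46.2 in the deleted samples, and so were the PDH kinases, at 33 and 30.9 against 69.6, 82.4 and 69.7.

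Low counts were uneven between libraries. Deleted 1 had under 10 counts in 11 of the 41 members, including G6pdx, Hif1a, Pfkp and Slc16a1, whereas deleted 2 had 3 such members, deleted 3 had 1, and each control had 1. Among the 40 members tested, 25% were under 10 counts in deleted 1, where 34.4% of all genes tested were, so the members were no more often low there than other genes. The SE of the log2 fold change of G6pdx, Hif1a, Pfkp, Slc16a1 and Slc16a3 lay between 1.75 and 2.39.

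The 4 X-linked members, Pgk1, Pdk3, Pdha1 and G6pdx, all had a log2 fold change above 0, as did 53.5% of all genes, and 2 were higher without overlap (50%, beside 14.9% of all genes); the 2 female samples were both in the deleted group. With sex as a covariate the median of all members was 0.89 with 28 of 40 above 0, and the median of all genes was -0.10; that fit compares the groups within males, where 1 deleted sample stands against 2 controls, and none of the members passed the threshold.

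Of other genes of these pathways, 74 were listed and 59 tested: 34 had a log2 fold change above 0 and 25 below, with a median of 0.72. EdgeR called 0 of them (at an unadjusted p under 0.05 there were 3, all higher) and DESeq2 1. Under these rules 5.33% of all genes tested were higher in edgeR, and DESeq2 called 1.58% of the genes to which it gave an adjusted p. In 16 of the 59 (27.1%) every deleted sample was higher and in 3 (5.08%) every deleted sample was lower, beside 14.9% and 17.2% of all genes. Prps1, which turns ribose 5-phosphate into the precursor of nucleotides, had 54.7 and 60.6 CPM in the controls and 128, 249 and 221 CPM in the deleted samples (log2 fold change 1.79, SE 0.408, adjusted p = 0.387 in edgeR and 0.0414 in DESeq2). This gene is X-linked, and both female samples were in the deleted group. Pgm1, the phosphoglucomutase that links glycogen to glycolysis, was higher without overlap, at 22.4 and 11.6 CPM against 37.8, 51.4 and 58.7 (log2 fold change 1.53, SE 0.658). Pgm2 was also higher without overlap, at 6.37 and 3.78 CPM against 21.9, 11.7 and 40.5 (log2 fold change 2.28, SE 1.03). Others higher without overlap in the glycolysis list included Adpgk (log2 fold change 1.96, SE 1.06), Galm (1.68, SE 0.953), Minpp1 (0.82, SE 0.835) and Slc16a7 (4.82, SE 2.22). Slc16a7 had 18, 1 and 53 counts in control 1 to 3, so its value in control 2 rests on 1 count. Pfkfb2 was lower (-2.04, SE 1.62).

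For pyruvate entry, Dld (log2 fold change 1.82), Pdhx (1.10) and Pdp2 (1.17) were higher without overlap, and Mpc2, a subunit of the mitochondrial pyruvate carrier, was lower, at 209 and 266 CPM in the controls and 31.6, 137 and 143 CPM in the deleted samples (log2 fold change -1.19, SE 0.628, adjusted p = 0.64, edgeR). In the pentose list Sord was also higher (log2 fold change 1.28, SE 0.458) and H6pd lower (-2.48, SE 1.44). In the share above 0, the median and the share higher without overlap, the further hypoxia genes were close to all genes. Of 26 tested, 14 lay above 0 (53.8%, beside 53.5% of all genes), with a median of 0.19 beside 0.11. Without overlap, 0 were lower (0%, beside 17.2% of all genes) and 4 were higher (15.4%, beside 14.9%). The 4 higher were Mxi1 (log2 fold change 2.81, SE 1.47), Plin2 (0.72, SE 0.382), Cited2 (0.83, SE 0.384) and Trf. Trf, transferrin, had 28.0 and 27.4 CPM against 248, 123 and 73.8 (log2 fold change 2.42, SE 0.613, adjusted p = 0.387, edgeR).

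Since RBFOX proteins are known to bind GCAUG in RNA, most often after U, the representative transcripts were searched on their own strand for TGCATG. The letters lay in 19 of 41 members (46.3%), against 51.8% of 12328 genes tested, at 0.245 and 0.282 sites per kilobase. Of the 28 member sites, 15 lay in coding sequence and 13 in the 3' UTR; introns, where much RBFOX binding is known, were not searched. Windows of 30 bases are shown for Tkt, the member with the smallest p, and for Pkm and Hif1a, with TGCATG in capitals. The Tkt sites lie at chr14:30565489-30565518 and chr14:30571195-30571224 (coding, plus strand) and chr14:30574051-30574080 (3' UTR), the Pkm site at chr9:59670641-59670670 (coding, plus) and the Hif1a site at chr12:73947223-73947252 (3' UTR, plus), in GRCm38.
Tkt coding site a: taccgagtctatTGCATGctgggagacggg
Tkt coding site b: ctggtgtaactcTGCATGaggccttggctg
Tkt 3' UTR site: tgttgagctatgTGCATGtttgccctttgt
Pkm coding site: aggcagccgacgTGCATGaagtcaggaagg
Hif1a 3' UTR site: caggctcctgcgTGCATGtctaatctgttc
A match of letters is not a binding site, and its share in the members was below that of the genes tested.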

How the data were processed

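The authors deposited a table of raw counts per gene; per the submitters' processing notes the reads were trimmed with Trimmomatic 0.39 and counted with featureCounts on mm10, and DESeq2 1.36.0 is named. No source used here names the aligner or the strand setting of the counting. Rows that shared an identifier were summed (60 identifiers, 23043 rows), and 22831 of 22969 identifiers received a symbol from GENCODE vM21. Controls 1 and 3 were summed, and nothing in the labels says how the replicates were raised, so p-values measure the spread between these 5 samples alone.

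The main test was edgeR 4.0.16 (R 4.3.3; TMM scaling, filterByExpr with at least 10 counts and a total of 15, quasi-likelihood test, Benjamini-Hochberg adjustment over 12350 genes, threshold 0.05). The biological coefficient of variation was 104%. The fit was tested on simulated data. A count of 3 corresponded to 0.0289 to 0.152 CPM. DESeq2 1.42.0 and limma 3.58.1 (voom), other scalings and filters, offsets for transcript length and GC content, sex and left-out samples were the alternatives. CPM per kilobase used 1 representative transcript per gene (APPRIS, then support level, then length). Shared sequence is the share of a transcript's 50-base windows found in another gene's transcripts. Such floors cover counting error only, whereas SEs include the spread between samples.

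The members and lists were chosen with earlier results of these data known. Fold changes were printed for the leading member per kilobase of each step, every member past the threshold or not overlapping between groups, and the hypoxia genes (Vegfa was not tested); of other pathway genes, those past the threshold or not overlapping, a few of which are not reported here. Replicate numbers were checked for pairing: correlations of same-numbered deviations were -0.0462, 0.00241 and 0.0704, so the numbers were not used to pair samples.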

Additional observations from a re-analysis of the deposited data

How the results depend on the processing

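The count of all genes called was 0 in every edgeR and limma-voom setting and 181 in DESeq2, which called 1 member. Fitted on 6 separate libraries with the replicate block, the members' median log2 fold change was 0.23 with 22 above 0, and all genes had a median of -0.27; with the replicate block and the GC offset it was 0.19, with 23 above 0. The block changed no other call, and the replicate numbers do not pair the samples. Leaving out each sample in turn gave 14 to 22 members higher without overlap and 3 to 5 lower, beside 19.1 to 27.7% and 23.9 to 26.8% of all genes; these counts, the scaling by library total (14 and 2), limma-voom, the summed Eno1 pair and the longest transcript were chosen after seeing the data. The members' median was 0.54 to 0.96 and 27 to 34 lay above 0 when samples were left out. Of 26 named genes, 17 kept their sign in every setting in which they were compared. Limma-voom was not among those settings, and 22 of the 26 were fitted with at least 10 counts in every sample. With upper-quartile scaling Aldoa was -0.08, Tpi1 -0.07 and Bnip3l -0.08. With sex as a covariate Pfkfb3 was 1.42, Pdhb -0.02, Bnip3l -0.02 and Egln1 -7.82. With the transcript length offset Pfkfb3 was 0.18 and Taldo1 0.17. With the replicate block Hif1a was -0.44 and Egln1 -2.57, and with the GC offset added -0.36 and -2.60. Leaving out samples, Pfkfb3 ranged from -2.82 to 0.55, Gapdh from -0.43 to 0.13, Hif1a from -0.15 to 0.98 and Bnip3l from -0.42 to 0.72. The Slc16a3 share of lactate transporters differed by 30.1 percentage points, or 19.8 to 40.4 with samples left out, and rests on few counts. The causes were not tested.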
